A study of Homo sapiens with 9 samples.

Results

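The comparison described here sets cisplatin-resistant OVCAR4 cells under a PRMT5 inhibitor against chemo-naive OVCAR4 cells without it, and asks which of the changes of the resistant state stayed, which went past the naive level and which were back at it. The libraries compared are 6 of the 9 in the series, namely 3 of resistant cells given EPZ015666 at 5 uM for 5 days (called treated here) and 3 of naive cells given DMSO, the solvent. The other 3, from resistant cells given DMSO, mark where the resistant state stood without the inhibitor. OVCAR4 is an established line of ovarian cancer of the high-grade serous type, and all libraries carry the genotype label WT. According to the study's methods the resistant cells were derived by continuous exposure to cisplatin, and cells were seeded in wells in triplicate, so the spread behind each p-value is that of wells and may be technical. No naive cells with inhibitor are among the libraries used, so whether the inhibitor acts in naive cells as it does in resistant ones cannot be told from them. The study's question was which genes under PRMT5 contribute to resistance.

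Cisplatin kills cells by crosslinking DNA, and cells that survive long exposure often show altered uptake, detoxification, repair and stress signalling. PRMT5 is the main enzyme that places symmetric dimethyl marks on arginines of histones and of Sm proteins, the core of the splicing machinery. It acts with WDR77, and EPZ015666 blocks its catalytic activity without removing the protein.

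Each library held 14320929 to 19114811 counts. Within groups, log2 levels correlated at 0.991 to 0.993 across genes and between groups at 0.927 to 0.954, and no pair of replicates matched within sampling noise (chi-square over its degrees of freedom, 5.61 to 12.5 in the 9 pairs). The serous markers PAX8 and SOX17 were present in treated cells at 144 ± 9.92 and 171 ± 18 CPM (CPM, the count scaled for library size; mean ± SD, n = 3), while WT1 was too low to test. The summed level of 14 serous markers was 1367 to 1396 CPM in naive and 937 to 968 CPM in treated libraries. Markers of fibroblasts and endothelium summed to 145 to 164 CPM in naive and 96.2 to 112 CPM in treated libraries, with PDGFRA, DCN and FAP too low to test, and of 6 members tested 2 were higher (LUM and COL1A1) and 2 lower (PECAM1 and VWF); VWF lost its call without naive replicate 1 (-0.49), naive replicate 2 (-0.61), treated replicate 1 (-0.44) or treated replicate 3 (-0.74). Immune cell markers summed to 3.51 to 4.94 CPM in naive and 6.20 to 8.29 CPM in treated libraries, with CD3D, CD3E and MS4A1 too low to test, and of 4 members tested 3 were higher and 1 lower (0 without naive replicate 1, treated replicate 2 or treated replicate 3). PTPRC and CD14, near the floor in naive cells, passed the filter on other libraries and could only come out higher. Mitochondrially encoded mRNAs took 7.37 ± 1.04% of counts in treated and 7.12 ± 1.00% in naive libraries (SD, n = 3, two-sided exact permutation p = 0.8, where 0.1 is the smallest p possible), and mitochondrial rRNA 4.24 ± 0.153% against 3.06 ± 0.445% (exact p = 0.1).

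Treated cells did not sit close to naive cells. Of 14630 genes tested, 9276 (63.4%) differed between them by edgeR's quasi-likelihood test with Benjamini-Hochberg adjustment at 0.05, with 4710 (32.2%) higher and 4566 (31.2%) lower in treated cells. Changes reached 2-fold in 1564 (10.7%) of the tested genes in the upward and in 1339 (9.15%) in the downward direction. The median log2 fold change over all genes was 0.00094. In bulk libraries such as these, fewer cells of a type and less RNA per cell cannot be told apart.

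To follow the resistant state, resistance genes were taken as those that differed between resistant cells under DMSO and naive cells by at least 2-fold and passed the test, 985 higher and 1335 lower. A resistance gene was called kept where treated cells still differed from naive cells in the same direction, overshoot where they differed in the opposite direction, and returned where they did not pass and the 95% interval of the difference lay within 1.5-fold of the naive level. Kept genes were split by the test of treated against resistant cells into those further from naive, those as in resistant cells (no call) and those partly reversed. The 3 comparisons share libraries, so these counts describe the classes and are no separate evidence for any of them. Where 3 CPM values follow a gene without group names, they are the means of naive, resistant and treated libraries in that order, and 2 such values are those of naive and treated libraries.

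Among the 985 genes higher in resistant cells, 759 (77.1%) were kept, 35 (3.55%) had returned, 42 (4.26%) had overshot and 149 (15.1%) were in no class because their interval was too wide. Of the kept genes, 271 were further above naive cells, 277 stood as in resistant cells and 211 were partly reversed. The kept class set no limit on size, while the returned class did. At least 2-fold from naive cells were 583 of the 759 kept genes and 67 of the 211 partly reversed ones. Of the 1335 genes lower in resistant cells, 842 (63.1%) were kept, of which 100 were further below, 391 as in resistant cells and 351 partly reversed. Here 584 of the 842 kept genes and 138 of the 351 partly reversed ones were at least 2-fold from naive cells. A further 108 (8.09%) of the 1335 genes had returned, 146 (10.9%) had overshot and 239 (17.9%) were in no class. The median log2 fold change against naive cells of the genes higher in resistant cells was 1.48 in resistant and 1.39 in treated cells, whereas that of the genes lower in resistant cells was -1.64 and -0.84.

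**Figure D1:**
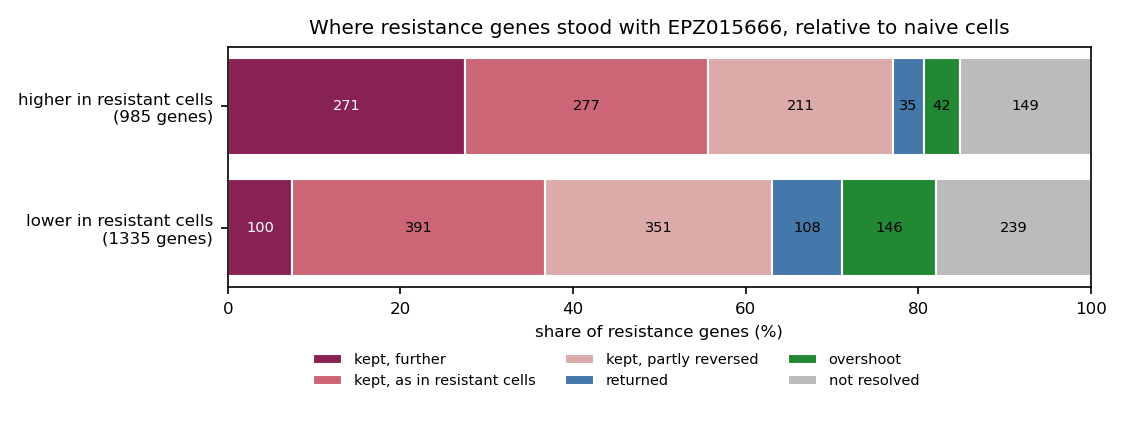
Share of resistance genes in each class (x axis, percent), for the 985 genes higher and the 1335 lower in resistant than naive cells; the number in each segment counts genes. Kept genes make up 77.1% of the upper and 63.1% of the lower bar, and the returned and overshoot segments are wider in the lower bar. Kept genes differ from naive cells in the same direction at any size.

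Among genes that reached 5 CPM, the largest fitted increase over naive cells was that of CLMP, an adhesion protein of cell junctions. It had no count in any naive library and stood at 5.8, 3.94 and 6.2 CPM in the treated ones, at least 85.9-fold higher against a floor of 3 counts over the naive group. Next came ILDR2, a protein of tricellular junctions, with 2 naive counts in all and 14.8, 15.4 and 17.6 CPM in treated libraries, a ratio of 383 (counting interval 106 to 3168), where the interval is 95% and covers counting error only. CLDN11, a claudin of tight junctions, was at 0.284, 0.138 and 0.63 CPM in naive and 98.8, 91.5 and 78.3 CPM in treated libraries, a log2 fold change of 7.95 ± 0.19 (SE) with an adjusted p of 6.92e-20 by the edgeR test. CDH13, a cadherin anchored by lipid, was at 16.3, 16.8 and 15.1 CPM in treated libraries on 3 naive counts, a ratio of 257 (counting interval 87.5 to 1247). In these 4 genes resistant cells under DMSO lay between, at 0.797, 5.68, 19.99 and 3.31 CPM in the same order.

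HP, which encodes the haemoglobin-binding plasma protein haptoglobin, stood at 14.9, 10.6 and 17.8 CPM in treated libraries against 3 naive counts, a ratio of 233 (counting interval 79.4 to 1132). PTPN22, a tyrosine phosphatase best known from lymphocytes, stood at 7.34, 6.35 and 8.22 CPM against 2 naive counts, a ratio of 176 (counting interval 48.4 to 1461).

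Largest of the decreases was that of GPR37, a G protein-coupled receptor, which fell from 11, 15.4 and 9.07 CPM in naive libraries to 3 counts over the treated ones, a naive to treated ratio of 189 (counting interval 64.5 to 921). PNMA8A fell from 9.77, 8.73 and 11 CPM to 0.178, 0.20 and 0 CPM and SGIP1, which acts in endocytosis, from 12.7, 14.4 and 15.6 CPM to 0.296, 0.267 and 0.298 CPM. MBNL3, a splicing regulator of the muscleblind family, fell from 10.2, 12.7 and 13 CPM to 0.474, 0.334 and 0.357 CPM, a log2 fold change of -4.91 ± 0.24. RAMP2, a partner of the adrenomedullin receptor, was at 5.28, 4.95 and 5.61 CPM in naive libraries, had no count in resistant ones under DMSO and 4 counts over the treated ones. LRCH2 fell from 7.21, 5.71 and 8.44 CPM to 0.237, 0.20 and 0.357 CPM. All 6 were already low in resistant cells without the inhibitor, between 0 and 0.686 CPM on average.

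The kept genes ranked by the smaller of their changes in resistant and treated cells against naive ones were led by developmental regulators and a proteoglycan. ZEB1, a repressor of epithelial genes, stood at 0.455, 0.275 and 0.252 CPM in naive, 35, 36.8 and 35.7 CPM in resistant and 31.9, 37 and 36.7 CPM in treated libraries. Resistant and treated libraries overlapped, and treated cells differed from naive ones by 6.69 ± 0.18 on the log2 scale with an edgeR adjusted p of 3.63e-19. SALL1, a zinc finger factor of kidney and limb development, stood at 0.0568, 0.138 and 0.126 CPM in naive, 13.2, 10.5 and 11.3 CPM in resistant and 12.5, 13 and 15.6 CPM in treated libraries. GPC6, a heparan sulfate proteoglycan of the cell surface, went from 0.331 CPM to 22.9 and then 14.7 CPM, and was partly reversed. HAGLR, a noncoding RNA antisense to the HOXD cluster, went from 0.266 to 10.3 and 9.51 CPM; no source used here gives the strand that was counted, so its reads cannot be told from those of its partners. Among kept genes with a fall, HCAR1, the lactate receptor, stood at 6.25, 8.59 and 6.17 CPM in naive and 0.178, 0.267 and 0.357 CPM in treated libraries.

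Some genes moved on from the resistant level in the same direction. AOX1, an aldehyde oxidase, climbed from 0.114, 0.138 and 0.126 CPM in naive to 2.04, 2.34 and 1.45 in resistant and 16.9, 15 and 21.3 CPM in treated libraries, and the 3 groups did not overlap. TNFAIP6, a hyaluronan-binding protein induced by TNF, was at 0.227, 0 and 0.126 CPM in naive, 0.962, 0.586 and 0.935 CPM in resistant and 8.47, 10.1 and 10.9 CPM in treated libraries. EMC10, a subunit of the complex that inserts proteins into the ER membrane, fell from 238, 214 and 236 CPM to 61.9, 73.5 and 68.8 and on to 19.4, 18.8 and 19.1 CPM, -3.58 ± 0.09 against naive cells with an edgeR adjusted p of 1.09e-19. KRT17, a keratin of basal epithelium, fell from 9.16 to 3.22 and 0.604 CPM, and KLHDC9 from 6.59 to 2.37 and 0.809 CPM.

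Overshoot ran in both directions. TGM2, a transglutaminase that crosslinks proteins, was at 184, 152 and 175 CPM in naive, 53.5, 47.3 and 54.4 CPM in resistant and 644, 622 and 690.4 CPM in treated libraries, 1.94 ± 0.09 against naive cells on the log2 scale (adjusted p = 2.89e-15, edgeR). The protease inhibitor gene PI3 (elafin) was at 3.29, 2.82 and 3.91 CPM in naive, 0.18, 0.639 and 0.935 CPM in resistant and 20.7, 14.8 and 17.5 CPM in treated libraries. SLCO2A1, a prostaglandin transporter, and BCL2L15, a member of the BCL2 family, showed the same order, at 2.98, 0.756 and 10.0 CPM and at 1.84, 0.387 and 5.96 CPM. In the opposite sense BEX2 went from 58.6, 71.3 and 63.9 CPM up to 126, 156 and 125 and down to 28.7, 27.8 and 28 CPM, with no overlap between any of the groups. LAMP3, a lysosomal membrane protein, did so from 36.5 to 114 and 17.3 CPM, COX20, an assembly factor of cytochrome c oxidase, from 21.6 to 48.8 and 11.3 CPM, and the interferon-induced IFIT1 is given below.

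Returned genes included IL1R2, a decoy receptor for interleukin 1, at 70.7, 69.7 and 79.8 CPM in naive, 8.36, 9.64 and 10.3 CPM in resistant and 72.5, 61.1 and 73.1 CPM in treated libraries. Naive and treated libraries overlapped, and the 95% interval of their log2 difference was -0.28 to 0.10. IGFL1, an insulin-like growth factor family ligand, was at 19, 2.05 and 18.8 CPM, CDHR1 at 7.95, 1.18 and 7.53 CPM, and PDPN (podoplanin), a membrane glycoprotein, at 16.3, 2.46 and 13.6 CPM. For PDPN every treated library (12.26, 13.9 and 14.65 CPM) lay below every naive one (18.18, 15.12 and 15.5 CPM), with an interval of -0.527 to 0.004. From above, MAP2K6, a kinase that activates p38, was at 20.7, 23.1 and 28.4 CPM in naive, 68.6, 80.5 and 83.9 CPM in resistant and 23.9, 21.3 and 23.1 CPM in treated libraries, with an interval of -0.31 to 0.15. LURAP1L (8.09, 51 and 7.58 CPM), SRXN1 (sulfiredoxin, 2.25, 8.49 and 2.18 CPM) and MXD1, an antagonist of MYC (20.3, 64.8 and 21 CPM), did the same. PDPN and MXD1 differed from naive cells with a call without naive replicate 2 (-0.32) and without naive replicate 2 (0.30), in that order.

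A further 113 genes higher and 143 lower in treated than naive cells by at least 2-fold had been within 1.5-fold of naive cells in the resistant state. AKR1B1, the aldose reductase of the polyol pathway, was at 187 ± 17.2 CPM in naive, 167 ± 11.5 CPM in resistant and 1007 ± 76 CPM in treated libraries, 2.43 ± 0.09 against naive cells. IL4I1, a secreted amino acid oxidase, stood at 3.06, 3.25 and 24.5 CPM, SGPP2, a sphingosine 1-phosphate phosphatase, at 2.67, 2.94 and 18 CPM, and GPR176, an orphan receptor, at 5.75, 5.75 and 31.1 CPM. FGF9, a growth factor, was at 31.9, 51.5 and 31.4 CPM in naive, 44.6, 39.4 and 40.2 CPM in resistant and 6.45, 6.48 and 6.49 CPM in treated libraries. HSD17B8, an enzyme of mitochondrial fatty acid synthesis, fell from 8.99 to 1.96 CPM, ANXA9, an annexin, from 37.7 to 8.51 CPM, and the kinase STK36 from 20.4 to 5.14 CPM.

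**Figure D2:**
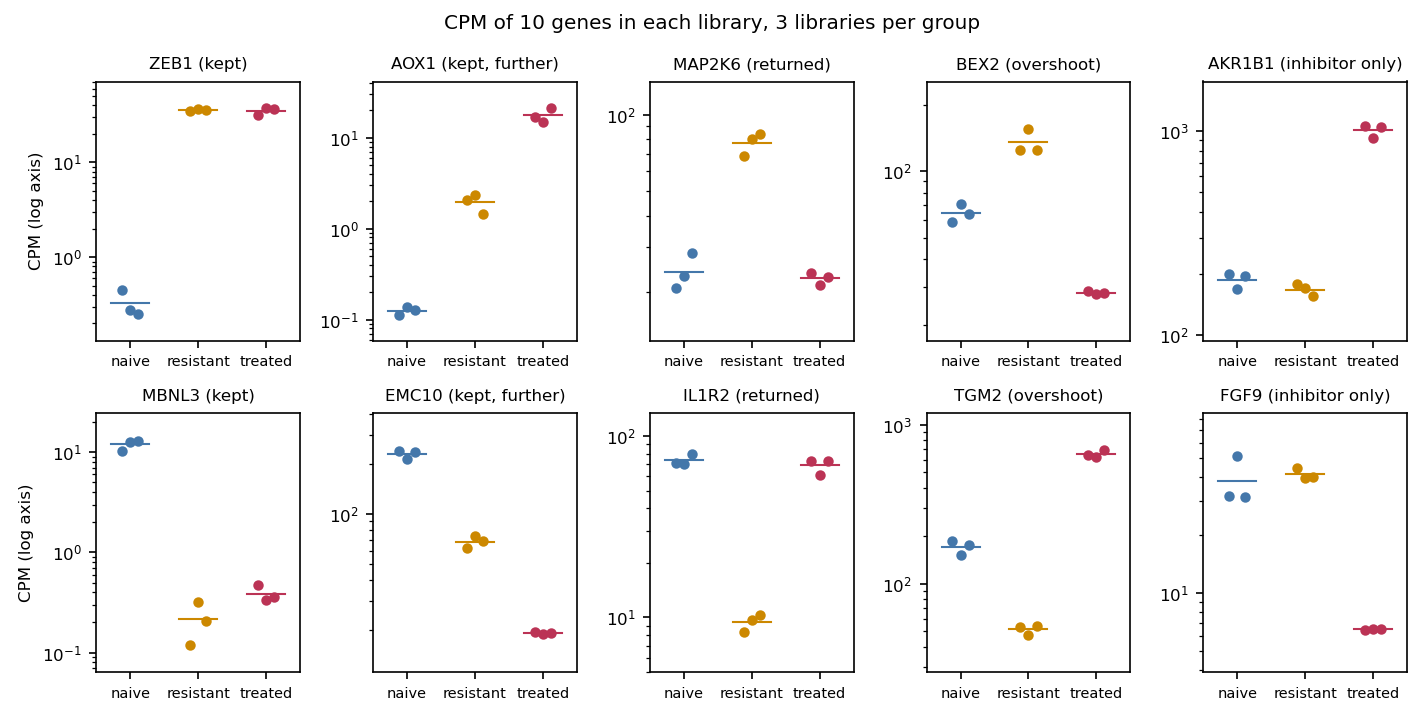
CPM (log axis, its range set for each panel) of 10 genes in each of the 3 libraries of naive, resistant and treated cells; points are libraries and lines are group means. ZEB1 and MBNL3 kept the resistant side, AOX1 and EMC10 moved on, MAP2K6 and IL1R2 were back among the naive libraries, BEX2 and TGM2 crossed to the other side, and AKR1B1 and FGF9 differed from both other groups in treated cells.

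Epithelial cells are held together by E-cadherin and claudins, and in epithelial to mesenchymal transition ZEB1, ZEB2 and SNAI1 repress these genes while vimentin and matrix genes rise. Of 19 mesenchymal genes tested, 15 (78.9%) were higher in treated than naive cells and 4 (21.1%) lower, with a median log2 fold change of 1.80. Over all genes tested 32.2% were higher and 31.2% lower, with a median near 0. The counts of every list in treated against naive cells are to be read against these shares. In resistant against naive cells the shares of all genes were 29.8% higher and 29.4% lower. In treated against resistant cells they were 31.9% and 30.5%. VIM (vimentin) was at 23.4, 20.4 and 22.5 CPM in naive, 272, 221 and 234 CPM in resistant and 519, 442 and 515 CPM in treated libraries, without overlap between the groups. The surface receptor kinase AXL stood at 38.8, 36.2 and 38 CPM in naive and 223, 230.4 and 238 CPM in treated libraries. CDH2 (N-cadherin) went from 11.2 to 65.5 CPM, MMP2, a gelatinase, from 3.35 to 68.6 CPM, and SPARC, a matrix glycoprotein, from 19 to 70.2 CPM. The 4 that were lower are the actin-binding TAGLN (log2 fold change -3.83 ± 0.12), the calcium-binding S100A4 (-2.20 ± 0.14), the transcription factor TWIST1 (-4.70 ± 0.44) and the crosslinking enzyme LOX (-0.38 ± 0.08). TAGLN, at 172 CPM in naive and 1.77 CPM in resistant cells, stood at 12.1 CPM in treated cells. SNAI2 and COL3A1 were too low to test.

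Of 24 epithelial genes, 20 (83.3%) were lower and 1 (4.2%) higher, with a median of -0.53, beside 31.2% and 32.2% of all genes. CDH1 (E-cadherin) fell from 178, 169 and 155 CPM in naive to 44.8, 52.3 and 54.6 CPM in treated libraries, past the 74.2 CPM of resistant cells. The splicing regulators ESRP1 and ESRP2 went from 242 to 102 and from 39.8 to 13.6 CPM, and GRHL2, a factor that maintains the epithelial state, from 66.5 to 23.2 CPM. ELF3 was the gene that was higher, at 107 and 147 CPM. Of 13 serous lineage markers tested, 8 (61.5%) were lower and 1 (7.7%) higher, with a median of -0.71. The latter, WFDC2, lost its call without naive replicate 2 (0.21) or naive replicate 3 (0.21). ESR1, the oestrogen receptor, was at 4.6, 4.33 and 3.97 CPM in naive and 0.118, 0.267 and 0.238 CPM in treated libraries and CRABP2, which carries retinoic acid, at 65.3 and 12.8 CPM. PAX8 did not pass (0.11 ± 0.08, adjusted p = 0.267, edgeR).

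NF-kB factors sit in the cytoplasm until IkB proteins are degraded, and then bind the kappaB motif before genes of cytokines, of cell survival and of their own inhibitors. Of 23 inflammatory genes tested, 19 (82.6%) were higher in treated than naive cells and none lower, beside 32.2% and 31.2% of all genes. Their median log2 fold change was 1.61, while 7 others were too low to test, CXCL10 and CCL20 among them. A gene without naive counts that passed the filter on other libraries, such as CSF3, could only come out higher. CXCL8, the neutrophil chemoattractant interleukin 8, stood at 75.6, 128 and 94.4 CPM in naive, 639, 575 and 629 CPM in resistant and 2312, 2036 and 2587 CPM in treated libraries. CCL2, which attracts monocytes, was at 12.8, 18.8 and 17.4 CPM in naive and 536, 469 and 499 CPM in treated libraries, IL6 at 0.966, 1.65 and 0.819 CPM and 24.8, 21.1 and 22 CPM. BIRC3, an inhibitor of apoptosis that acts in TNF receptor complexes, was at 3.35, 4.47 and 4.6 CPM in naive, 6.67, 6.6 and 7.69 CPM in resistant and 124, 130.3 and 132 CPM in treated libraries, with an edgeR log2 fold change against naive cells of 4.96 ± 0.11. CSF3, which encodes G-CSF, had no count in naive or in resistant cells and stood at 1.18, 2.4 and 1.85 CPM with the inhibitor, at least 28.6-fold higher than in naive cells against 3 counts over the group, and with it at that bound the list's median was the same.

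The pathway's own subunits and inhibitors were among those that were higher. NFKBIA, the inhibitor IkB alpha, went from 46.7 ± 4.9 to 109 ± 6.27 CPM (SD, n = 3), TNFAIP3, the deubiquitinase A20, from 15.7 ± 4.15 to 60.5 ± 3.16 CPM, and NFKB2 and RELB, the subunits of the noncanonical branch, from 21.4 to 65.9 and from 16.6 to 42.6 CPM. REL, CXCL1, CXCL2 and CXCL3 are the 4 that did not pass, though CXCL3 did without naive replicate 2 (0.62). CXCL1, at 169, 218 and 153 CPM in naive, 94.4, 60.0 and 75.7 CPM in resistant and 176, 170.3 and 156 CPM in treated libraries, differed from naive cells by -0.11 ± 0.12, with a 95% interval of -0.36 to 0.15, whereas CXCL5, a chemokine that binds the same receptor, was at 6.59, 7.15 and 6.87 CPM in naive, 89.3, 64.4 and 68 CPM in resistant and 267, 259 and 238 CPM in treated libraries. CXCL1, CXCL2 and CXCL3 are close paralogs whose shared reads the counting leaves out.

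The bases before the starts of CXCL1, CXCL5 and IL6 are shown because these neighbours in function moved differently while each holds a kappaB motif, printed in capitals where 1 match or 2 overlapping matches lie. The stretches end at the base before the RefSeq start and lie, in GRCh38.p14, at chr4:73869283-73869392, plus strand, at chr4:73998678-73998787, minus strand and at chr7:22727090-22727199, plus strand, upstream of each gene and outside its exons.
CXCL1: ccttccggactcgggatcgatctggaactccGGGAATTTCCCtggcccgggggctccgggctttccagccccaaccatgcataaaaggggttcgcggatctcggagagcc
CXCL5: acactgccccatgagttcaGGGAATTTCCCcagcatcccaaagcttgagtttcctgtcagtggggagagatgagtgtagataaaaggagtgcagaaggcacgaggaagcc
IL6: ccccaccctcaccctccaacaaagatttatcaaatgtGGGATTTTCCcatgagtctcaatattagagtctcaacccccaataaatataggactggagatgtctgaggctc
CXCL1 and CXCL5 carry the same 11 capital letters. In the 250 bases before the start, 10 of the 18 inflammatory genes tested that matched the promoter table by symbol held a kappaB motif on either strand, against 5.05% of all 27305 promoters in that table and 6.04% of the 10977 of genes tested. Of the 14 that were higher in treated cells 6 held it. A match is a description of letters and shows no binding.

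Of 24 acute-phase and innate defence genes, many of them secreted, only 13 had enough counts to test. Of these 11 (84.6%) were higher and none lower, with a median of 2.40, beside 32.2% and 31.2% of all genes. Members with few naive counts that passed the filter on other libraries, such as SAA2 and CLEC4E, could only come out higher. The count and the median are therefore in part set by the filter. SAA2, a serum amyloid, was at 0.227, 0.138 and 0.504 CPM in naive and 13.8, 18.4 and 12.3 CPM in treated libraries; it shares reads with SAA1. CLEC4E, a lectin receptor for fungal and mycobacterial glycolipids, was at 0.227, 0.138 and 0.063 CPM and 10.7, 8.75 and 12.7 CPM, and complement C3 at 491, 516 and 462 CPM and 1725, 2034 and 2017 CPM. LCN2, which binds bacterial siderophores, was at 70.2 CPM in naive, 186 in resistant and 304 CPM in treated cells, and S100A9, a subunit of calprotectin, at 32.5, 8.4 and 95.1 CPM. SERPINA1 and SLPI did not pass, though SLPI did without treated replicate 2 (0.28). Of the 4 immune cell markers tested (of 14 in the list) 3 were higher and 1 lower, with PTPRC at 0.285 and 1.1 CPM and CD14 at 0.149 and 1.24 CPM in naive and treated cells, and their part in the inflammatory lists was not tested. PTPRC and CD14 had few naive counts, passed the filter on other libraries and could only come out higher.

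Interferon-stimulated genes are switched on by a STAT complex with IRF9 at an element called ISRE. Here they divided. Of 31 tested, 17 (54.8%) were higher in treated than naive cells and 6 (19.4%) lower, beside 32.2% and 31.2% of all genes. The median was 0.48. In resistant cells 20 were higher than in naive cells and 0 lower, with a median of 0.58, beside 29.8% and 29.4% of all genes. Against resistant cells 14 were lower and 7 higher in treated cells, with a median of -0.27, beside 30.5% and 31.9% of all genes. IFIT1, which blocks translation of foreign RNA, went from 12.9, 14.8 and 16.9 CPM in naive up to 43.4, 64.7 and 55.3 in resistant and down to 8.29, 6.15 and 7.8 CPM in treated libraries. OASL, of the oligoadenylate synthetase family, was at 6.48, 7.36 and 6.42 CPM in naive, 11.8, 9.69 and 10.3 CPM in resistant and 1.36, 1.2 and 0.834 CPM in treated libraries, while its relative OAS3 was at 7.16, 5.57 and 5.29 CPM in naive, 5.29, 5.86 and 4.42 CPM in resistant and 18.1, 21.8 and 20.9 CPM in treated libraries. The groups did not overlap between treated and naive cells in any of these 3 genes. MX1, IFIT2, STAT2 and BST2 were the other 4 that were lower, with log2 fold changes of -0.66, -0.39, -0.38 and -0.27; BST2 had no call without naive replicate 1 (-0.21). Among those that were higher were SAMD9 (2.46 ± 0.16), IFIH1, the sensor of long double-stranded RNA (1.62 ± 0.16), OAS1 (1.63 ± 0.16) and IRF1 (1.13 ± 0.10).

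The stretches before IFIT1 and OAS3 are shown because both hold the ISRE letters, TTTC and TTTC with 2 free bases between them (either strand, in capitals), at 2 places and ended on opposite sides of naive cells. They lie at chr10:89392493-89392622, plus strand, and at chr12:112938324-112938473, plus strand, in GRCh38.p14. Outside its capitals, the OAS3 stretch also holds the kappaB letters printed before CXCL1 and CXCL5, and the IFIT1 stretch does not.
IFIT1: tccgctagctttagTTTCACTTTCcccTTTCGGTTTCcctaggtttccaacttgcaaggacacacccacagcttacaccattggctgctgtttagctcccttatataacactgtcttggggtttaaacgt
OAS3: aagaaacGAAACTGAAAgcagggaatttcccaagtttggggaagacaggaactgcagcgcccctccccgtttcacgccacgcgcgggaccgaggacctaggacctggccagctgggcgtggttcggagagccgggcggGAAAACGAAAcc
Of 25 tested interferon-stimulated genes in the promoter table, 16 held these letters within 250 bases before the start, against 3.07% of all promoters and 2.27% of those of genes tested. They were found before 11 of the 15 higher genes and 2 of the 4 lower genes with a promoter there.

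Antigen presentation genes, which load peptides onto class I molecules, were higher in 9 of 13 members (69.2%) and lower in 4 (30.8%). Over all genes the shares were 32.2% and 31.2%, and the median of the list was 0.95. B2M, the light chain of class I molecules, was at 106, 95.7 and 123 CPM in naive and 239.9, 228 and 270.0 CPM in treated libraries, and CD74, the invariant chain of class II, at 52.8, 29.7 and 123 CPM in naive, resistant and treated cells. The trimming peptidase ERAP2 and the immunoproteasome subunit PSMB9 were higher by 2.17 and 2.03 on the log2 scale. The 4 that were lower were TAPBPL (-1.40), ERAP1 (-0.46) and the chaperones CALR (-1.03) and PDIA3 (-0.30), of which the chaperones also serve the ER folding described next.

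**Figure D3:**
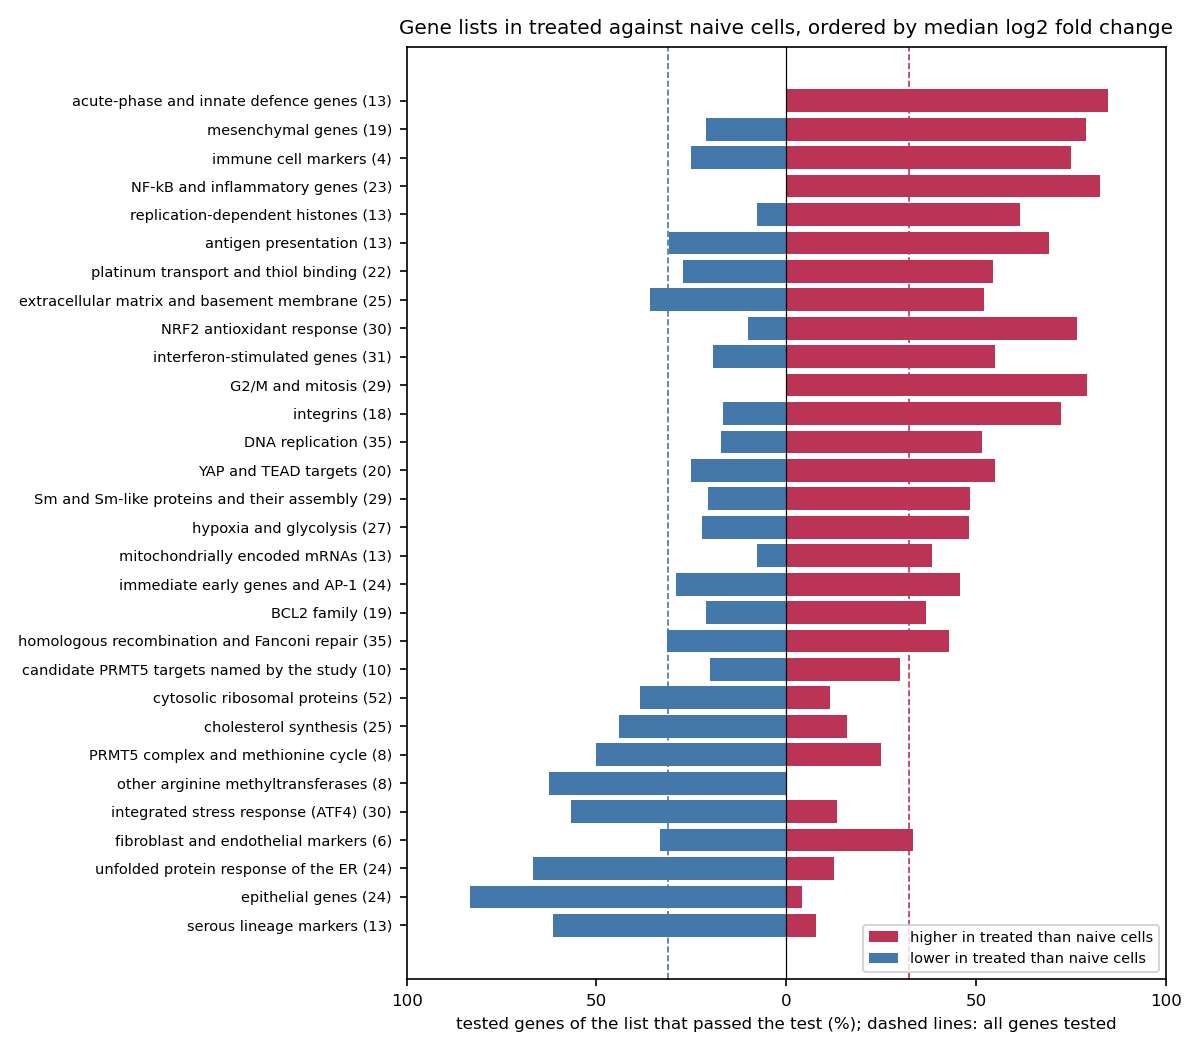
Share of the tested genes of each of the 30 lists (number in brackets) that were higher (right, red) or lower (left, blue) in treated than naive cells, in percent and ordered by the list's median log2 fold change; dashed lines mark the 32.2% higher and 31.2% lower of all genes tested. Acute-phase, mesenchymal, immune marker and inflammatory genes stand at the top, and serous, epithelial and ER folding genes at the bottom. Members with few naive counts in the acute-phase, immune marker and inflammatory lists could only come out higher.

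Proteins that misfold in the ER set off the unfolded protein response, in which XBP1 and ATF6 raise chaperones. The ATF4 program of the integrated stress response raises amino acid supply. Of 24 genes of the unfolded protein response, 16 (66.7%) were lower in treated than naive cells and 3 (12.5%) higher, beside 31.2% and 32.2% of all genes. The median was -0.49. HSPA5, the chaperone BiP, was at 1259, 1425 and 1148 CPM in naive, 2889, 2784 and 2412 CPM in resistant and 722, 821 and 764 CPM in treated libraries, and so fell on the far side of naive cells. HSP90B1, the ER form of HSP90, stepped down instead, from 1726, 1854 and 1725 to 1203, 1186 and 1152 and 963, 1003 and 982 CPM. CALR (calreticulin) went from 1533 to 928 and 749.5 CPM, and the chaperone HYOU1 from 263 to 257 and 114 CPM. The 3 that were higher were SEC61B, ERN1, which encodes the sensor IRE1, and EDEM1. ERN1 lost its call without naive replicate 3 (0.29) or treated replicate 3 (0.32), and EDEM1 without naive replicate 2 (0.16), naive replicate 3 (0.21), treated replicate 1 (0.21) or treated replicate 2 (0.17).

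The 2 chaperone promoters are printed because the letters of the ER stress element, CCAAT and CCACG with 9 free bases between them on either strand, are rare and lie here before genes that were lower. HSPA5 holds 1 match in this stretch and HSP90B1 2, in capitals, at chr9:125241344-125241453, minus strand, and at chr12:103930210-103930409, plus strand, in GRCh38.p14.
HSPA5: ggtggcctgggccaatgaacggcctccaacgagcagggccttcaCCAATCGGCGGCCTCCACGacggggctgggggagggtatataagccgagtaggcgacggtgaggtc
HSP90B1: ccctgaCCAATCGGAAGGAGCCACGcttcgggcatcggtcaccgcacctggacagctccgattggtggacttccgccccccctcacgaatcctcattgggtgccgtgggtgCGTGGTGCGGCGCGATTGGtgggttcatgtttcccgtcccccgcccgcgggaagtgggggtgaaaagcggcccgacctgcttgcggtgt
The element was found before 6 of 23 tested genes of the list, all 6 of them lower in treated than naive cells, and in 0.0806% of all promoters and 0.137% of those of genes tested.

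Of 30 ATF4 program genes, 17 (56.7%) were lower than in naive cells and 4 (13.3%) higher, beside 31.2% and 32.2% of all genes. The median was -0.29. DDIT3, the stress factor CHOP, was at 154, 229.8 and 206 CPM in naive, 344, 413 and 414 CPM in resistant and 112, 115 and 132 CPM in treated libraries, and TRIB3, a pseudokinase that restrains it, at 659.5, 883 and 358 CPM. ATF3, which was at 226 CPM in resistant cells, stood at 10.3, 50.04 and 14.3 CPM in naive and 20.2, 19.2 and 18.5 CPM in treated libraries and did not pass (-0.34 ± 0.31, adjusted p = 0.352, edgeR), although it did without naive replicate 1 (-0.73). PCK2 and ALDH1L2, mitochondrial enzymes, were lower, with log2 fold changes of -1.70 and -1.32. The 4 that were higher were SLC7A11, the cystine transporter, at 49.3, 61.5 and 55.2 CPM in naive, 434, 400.00 and 445 CPM in resistant and 170.2, 203 and 185 CPM in treated libraries, GDF15 (0.83), PSPH (0.67) and ASNS (0.69). In 24 ATF4 program genes with a promoter in the table, the composite element TGATGNAA was found before 4, against 3.19% of all promoters and 1.41% of those of genes tested. It lay before 1 of the 13 lower genes and 1 of the 2 higher genes with a promoter there.

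NRF2 drives genes that make glutathione and reduce quinones when KEAP1 is modified by electrophiles. Of 30 NRF2 genes tested, 23 (76.7%) were higher than in naive cells and 3 (10%) lower, where 32.2% and 31.2% of all genes were. Their median was 0.53 beside 1.06 for resistant cells. Against resistant cells 16 were lower and 8 higher, beside 30.5% and 31.9% of all genes. HMOX1, which degrades haem, was at 5.06, 4.26 and 5.29 CPM in naive, 30.8, 26.5 and 23.6 CPM in resistant and 20.3, 19.3 and 19.2 CPM in treated libraries, and TXNRD1, a thioredoxin reductase, at 479.7, 532 and 537 CPM in naive, 1572, 1368 and 1343 CPM in resistant and 968, 1006 and 973 CPM in treated libraries. NQO1 went from 172 to 417 and 299 CPM, GCLM, a subunit of the enzyme that makes the glutathione precursor, from 66 to 167 and 128 CPM, and PRDX1, a peroxiredoxin, from 509 to 675 and 888 CPM. NFE2L2, which encodes NRF2, stood at 191 ± 50.9 CPM in naive, 482 ± 10.8 CPM in resistant and 202 ± 4.38 CPM in treated libraries and did not pass against naive cells, with a 95% interval of -0.15 to 0.32 on the log2 scale; it passed without naive replicate 2 (0.30). FTL (-0.58), SLC48A1 (-0.34) and TALDO1 (-0.21) were the 3 that were lower, TALDO1 with no call without naive replicate 1 (-0.15), treated replicate 2 (-0.19) or treated replicate 3 (-0.21). The antioxidant letters TGACNNNGC lay before 5 of 22 members, against 11% of all promoters and 12.3% of those of genes tested.

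**Figure D4:**
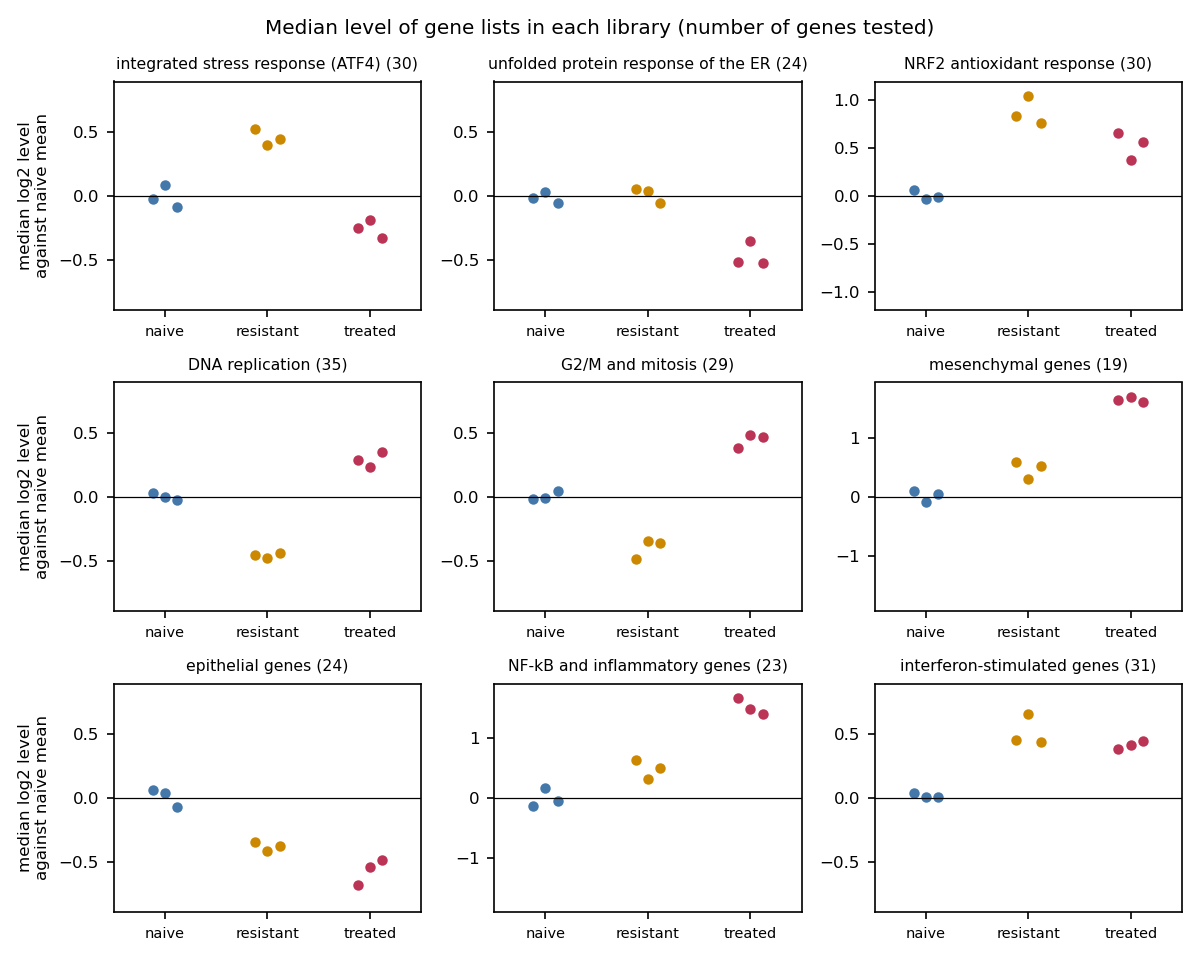
Median level of the tested genes of 9 lists in each library (points, log2 difference from the mean of the naive libraries; the y axis differs between panels). Treated libraries lie on the other side of naive libraries from resistant ones for the ATF4 program, replication and mitosis, and beyond resistant libraries for mesenchymal, epithelial and inflammatory genes.

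The median of replication genes and that of mitosis genes lay below naive cells in the resistant state and above them with the inhibitor. Of 29 genes of G2/M and mitosis, 23 (79.3%) were higher in treated than naive cells and none lower, with a median of 0.42 (-0.41 for resistant cells). Of these, 1 was lower without naive replicate 2 or treated replicate 2, and 2 with scaling by library size alone. Of 35 replication genes 18 (51.4%) were higher and 6 (17.1%) lower, with a median of 0.35 (-0.46 for resistant cells). Over all genes 32.2% were higher and 31.2% lower. In resistant cells 21 of the 29 and 26 of the 35 were lower and 2 of each list higher, beside 29.4% and 29.8% of all genes. The kinase TTK of the spindle checkpoint was at 57.9, 64.1 and 75.8 CPM in naive, 46.8, 62.7 and 62.5 CPM in resistant and 153, 145 and 172 CPM in treated libraries, and TOP2A, the topoisomerase that untangles chromosomes, at 396, 405 and 441 CPM in naive, 281, 364 and 355 CPM in resistant and 580.1, 643 and 678 CPM in treated libraries. CDK1, the mitotic kinase, stood at 238, 180.0 and 385 CPM. In replication, RRM1, the large subunit of ribonucleotide reductase, was at 159, 161 and 172 CPM in naive, 101, 123 and 116 CPM in resistant and 289, 278 and 332 CPM in treated libraries, whereas its partner RRM2 was lower than in naive cells, at 68.9, 59.2 and 62.2 CPM in naive, 37.5, 33 and 32.7 CPM in resistant and 43.3, 37.5 and 36.2 CPM in treated libraries. MCM7, POLA1, RFC5, POLD1 and PRIM2 were the other 5 that were lower, PRIM2 with no call without naive replicate 2 (-0.19), treated replicate 1 (-0.25) or treated replicate 3 (-0.24). The mitotic kinase PLK1 did not pass. The letters TTTGAA of the cell cycle homology region lay before 13 of 24 mitosis genes, against 13.6% of all promoters and 8.25% of those of genes tested. Of 25 replication-dependent histones 13 were tested, of which 8 (61.5%) were higher than in naive cells and 1 (7.7%, H2AC6) lower. Their median was 0.97, at low levels such as 9.61 and 22.4 CPM for H2BC5. Unlike the lists above, these histones were already raised in resistant cells, with 11 higher, 0 lower and a median of 1.40, beside 29.8% and 29.4% of all genes. Against resistant cells 5 were lower and 1 higher in treated cells, with a median of -0.34, beside 30.5% and 31.9% of all genes.

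The lists that follow are to be read against the 32.2% higher and 31.2% lower of all genes tested. Of 25 genes of the extracellular matrix and basement membrane, 13 (52%) were higher and 9 (36%) lower. Among laminins, LAMB1 (1.02), LAMB3 (1.18) and LAMC1 (0.40) were higher and LAMA1 (-2.10), LAMB2 (-1.82), LAMA5 (-1.11) and LAMA3 (-0.60) lower on the log2 scale. COL4A1 and COL4A2, the collagens of basement membranes, went from 468 to 889 and from 1030.0 to 1511 CPM, and the proteoglycan AGRN from 578 to 216 CPM. NID2, at 17.2, 15.4 and 16.6 CPM in naive, 0.12, 0.426 and 0.415 CPM in resistant and 2.37, 3.01 and 3.04 CPM in treated libraries, stayed below naive cells. Integrins were higher in 13 of 18 and lower in 3 (ITGA1, ITGA3 and ITGA6). ITGB2, a leukocyte integrin chain, was at 21, 16.7 and 16.8 CPM in naive, 70.3, 65.2 and 63.1 CPM in resistant and 114, 128 and 118 CPM in treated libraries, and ITGA2, of the collagen receptor, at 4.15, 2.82 and 4.09 CPM in naive, 2.22, 2.34 and 1.82 CPM in resistant and 23.1, 22.9 and 21.6 CPM in treated libraries. Targets of YAP and TEAD were higher in 11 of 20 and lower in 5 (3 without naive replicate 2), with CCN2 not passing and AMOTL2 at 908 and 281 CPM. Immediate early and AP-1 genes were higher in 11 of 24 (45.8%) and lower in 7 (29.2%), beside 32.2% and 31.2% of all genes. FOS fell from 86.9, 78.8 and 95.2 CPM in naive to 19.4, 19.5 and 24.7 CPM in treated libraries, and its relative FOSL1 rose from 4.26, 6.6 and 4.03 CPM to 25.3, 23.5 and 25.3 CPM.

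Genes of platinum transport and thiol binding were higher in 12 of 22 members and lower in 6, with a median of 0.60. GSTP1, a glutathione transferase, was at 2431, 2204 and 2288 CPM in naive, 1270.0, 1386 and 1196 CPM in resistant and 978, 897 and 907 CPM in treated libraries. The metallothionein MT2A was at 102, 76 and 87.2 CPM in naive, 37.6, 41.5 and 33.9 CPM in resistant and 292, 262 and 296 CPM in treated libraries. SLC31A1, the copper transporter that also carries cisplatin, was at 60.3, 103 and 87.5 CPM, LRRC8A, of the volume-regulated anion channel, at 66.7, 128 and 153 CPM, and the copper exporter ATP7B at 8.66, 4.93 and 3.28 CPM. ABCC3, an efflux pump of conjugates, was at 4.36, 22.2 and 16 CPM.

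In homologous recombination and Fanconi repair, 15 of 35 genes (42.9%) were higher and 11 (31.4%) lower (7 without treated replicate 3), beside 32.2% and 31.2% of all genes, with a median of 0.02. RAD51C, a recombination protein, was at 26.6, 26.3 and 31.9 CPM in naive, 46.6, 61.6 and 60.3 CPM in resistant and 83.2, 83.8 and 91.4 CPM in treated libraries, and BRCA1 at 21.2, 24.4 and 24.8 CPM in naive, 42, 47.9 and 52.7 CPM in resistant and 34.9, 48.8 and 40.9 CPM in treated libraries. Its helicase partner BRIP1 was higher by 1.10 on the log2 scale, while XRCC3 (-1.54), FANCE (-0.90) and RAD51D (-0.85) were lower. In the BCL2 family, 7 of 19 (36.8%) were higher and 4 (21.1%) lower, which is near or below the share of all genes. PMAIP1 (NOXA) went from 16.9, 20.1 and 16.8 CPM in naive to 57.2, 54.3 and 59.5 CPM in treated libraries, BID from 59.5, 58.1 and 62.8 CPM to 195, 184 and 175 CPM and BCL2 from 1.48, 2.27 and 1.64 CPM to 5.15, 5.75 and 6.02 CPM. BCL2L1, at 294 and 313 CPM, did not pass, and MCL1 was lower, with a log2 fold change of -0.26 and no call without naive replicate 2 (-0.18).

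In metabolism, 11 of 25 genes of cholesterol synthesis were lower and 4 higher (2 without naive replicate 2 or treated replicate 3), with a median of -0.12. TM7SF2, a sterol reductase, fell from 104, 86.9 and 96.1 CPM in naive and 50.2 CPM in resistant cells to 14.4, 12.1 and 12.3 CPM. Hypoxia and glycolysis genes were higher in 13 of 27 and lower in 6, with VEGFA at 229, 294 and 117 CPM and PFKL, the liver form of phosphofructokinase, at 186, 147 and 74.7 CPM. Of 52 cytosolic ribosomal protein genes, 20 (38.5%) were lower and 6 (11.5%) higher, beside 31.2% and 32.2% of all genes, and 13 were lower without treated replicate 2, with a median of -0.04, and of 13 mitochondrially encoded mRNAs 5 were higher and 1 lower (0 without naive replicate 2, naive replicate 3 or treated replicate 3).

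The mRNA of the enzyme that the inhibitor blocks did not pass the test. PRMT5 stood at 119.8, 121 and 123 CPM in naive and 125, 120.4 and 105 CPM in treated libraries, with a 95% interval of the log2 difference of -0.23 to 0.12. Of 8 genes of its complex and of the methionine cycle, which makes and clears its methyl donor, 2 were higher (COPRS and MTAP) and 4 lower, namely WDR77 (-0.25), RIOK1 (-0.33), MAT2A (-0.48) and AHCY (-0.86), with a median of -0.15. WDR77 lost its call without naive replicate 1 (-0.19), naive replicate 3 (-0.25) or treated replicate 2 (-0.17). AHCY, which hydrolyses the inhibitory by-product of methylation, went from 534, 500.4 and 514 CPM in naive to 363, 357 and 344 in resistant and 295, 284 and 274 CPM in treated libraries. Other arginine methyltransferases were lower in 5 of 8 (PRMT1, PRMT2, PRMT3, CARM1 and PRMT6) and higher in none, with a median of -0.25. The call of PRMT2 was lost without naive replicate 1 (-0.21) or treated replicate 2 (-0.22) and that of PRMT3 without naive replicate 3 (-0.21) or treated replicate 3 (-0.21). Sm and Sm-like proteins and their assembly factors, which include PRMT5 substrates, were higher in 14 of 29 and lower in 6, with SNRPB, a core Sm protein, at 243, 197 and 229 CPM and 376, 307 and 346 CPM and SNRPN at 36.2 and 16.5 CPM.

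Of 10 candidate targets of PRMT5 named by the study, 3 were higher than in naive cells and 2 lower, with a median of 0.00056. The study chose these genes on the same libraries, so their order across the groups is not independent evidence. STK17A, a kinase linked to apoptosis, was at 129, 154 and 129 CPM in naive, 281, 281 and 268 CPM in resistant and 243, 224 and 244 CPM in treated libraries, and TIMM44, of mitochondrial import, at 93, 105 and 86.8 CPM in naive, 169.9, 156 and 157 CPM in resistant and 75.7, 72.5 and 67.3 CPM in treated libraries. HDAC4, NFE2L1, RCL1, TXNL4B and ABCA7 did not pass against naive cells.

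Position along the genome, which the class rule did not use, went with part of the difference. Chromosomes and stretches named here were picked after their values were seen and are described without a test. Chromosome 9 had the highest median log2 fold change, 0.356 over 568 genes, with 307 higher and 79 lower. Its median in single libraries was 0.311 to 0.350 in treated and 0.344 to 0.389 in resistant cells, against -0.00739 to 0.00466 in naive ones, and no treated library overlapped a naive one. Split into stretches of about 30 consecutive tested genes, all 19 stretches of chromosome 9 had a positive median, from 0.0204 to 0.677. Chromosome 18 had a median of 0.251 and chromosome 4 of 0.166. Chromosome 20 had the lowest, -0.216 over 393 genes, with 68 higher and 193 lower and a negative median in all 13 stretches, followed by chromosome 16 at -0.210. Their medians in resistant cells against naive ones were 0.385 for chromosome 9 and -0.215 for chromosome 20, and those of treated against resistant cells 0.0016 and 0.011.

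**Figure D5:**
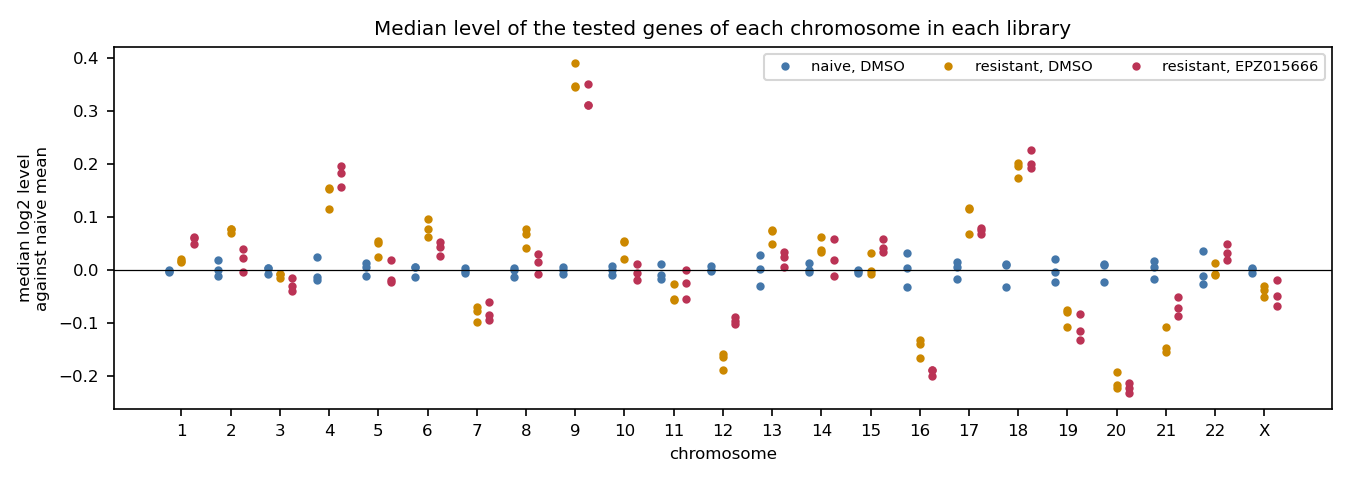
Median log2 level of the tested genes of each chromosome in each library, relative to the mean of the naive libraries (y axis); points are libraries, coloured by group. On chromosomes 9, 18 and 20 resistant and treated libraries lie together and apart from naive ones.

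Of 485 stretches over the genome, 6 had at least 80% of their genes called in 1 direction. The last stretch of chromosome 14 had 29 of 29 genes lower in treated than naive cells, with a median of -1.26 and, for resistant cells, -1.1. Its genes, named here after their values were seen, include XRCC3, a recombination protein (-1.54 ± 0.10), the chromatin factor MTA1 (-1.56 ± 0.08), the Notch ligand JAG2 (-1.26 ± 0.11), the formin INF2 (-1.41 ± 0.09) and PACS2 (-1.19 ± 0.09). On chromosome 3 a stretch with 27 of 30 genes higher had a median of 1.19 and holds the sialyltransferase ST6GAL1 (2.92 ± 0.21), CLDN1 (1.75 ± 0.11), IL1RAP (1.63 ± 0.09) and HES1 (1.60 ± 0.11), and another with 26 of 31 lower had a median of -0.571. On chromosome 12 a stretch with 24 of 30 genes lower had a median of -0.635, and on chromosome 9 one with 24 of 30 higher had 0.677. The last stretch of chromosome 8 had 26 of 30 lower with a median of -0.603, and -0.0514 for resistant cells. Across genes, the difference also went with base composition. Median log2 fold changes ran from 0.151 in the decile of genes with the lowest GC content of the longest transcript to -0.152 in that with the highest. After centring within GC deciles, an alternative chosen after seeing the data, the medians were 0.369 for chromosome 9, -0.216 for chromosome 20, -1.16 for the end of chromosome 14 and -0.489 for that of chromosome 8. Those of chromosomes 16, 4 and 18 were smaller in size than before centring, at -0.147, 0.121 and 0.21. The part of base composition in these medians was not tested beyond this centring.

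The HOXA genes, a cluster on chromosome 7 that patterns the reproductive tract, were looked at after their values were seen. Of 11 HOXA genes tested, 9 were higher in treated than naive cells and none lower, with a median of 1.73 beside 1.16 for resistant cells. Over all genes tested 32.2% were higher and 31.2% lower. HOXA10 was at 1.99, 1.65 and 2.33 CPM in naive, 16.5, 22 and 17.1 CPM in resistant and 24, 24.1 and 22 CPM in treated libraries, HOXA11 at 1.02, 1.1 and 1.26 CPM in naive, 8.66, 6.12 and 6.96 CPM in resistant and 9.3, 7.28 and 6.37 CPM in treated libraries. HOXA9 and HOXA2 did not pass, though HOXA9 did without naive replicate 3 (1.08) and HOXA2 without naive replicate 1 (1.34). In the HOXB cluster 3 of 9 were higher and 3 lower, near the shares of all genes, and in the HOXC cluster 4 of 5 were higher and 1 lower. Only 1 HOXD gene was tested, and it was higher, with log2 fold changes against naive cells of 5.7 in treated and 6.16 in resistant cells. The clusters hold antisense genes, and reads of overlapping genes cannot be told apart where the strand counted is not known.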

How the data were processed

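RNA of 9 wells of OVCAR4 cells was sequenced. The deposited table holds counts of reads per gene in each library, which the authors made with STAR (GeneCounts), so reads that map to several places are left out. No source used here gives the genome build, annotation or strand column. Gene IDs of 61369 of 61487 table rows matched the symbol table.

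Groups, with 3 libraries each, come from the sample labels. Genes with enough counts by filterByExpr (minimum count 10), 14630 in all, which held 99.88% of counts, were scaled by TMM and fitted with edgeR 4.0.16 (glmQLFit and glmQLFTest, R 4.3.3) over all 9 libraries; calls needed a Benjamini-Hochberg adjusted p under 0.05 over all genes tested. The study itself used DESeq2. CPM values use TMM-scaled library totals. SD is over 3 libraries, SE that of the fitted log2 fold change, and intervals are 95%. Counting intervals and floors cover counting error only. Named genes had a symbol and, in treated against naive cells, a call, at least 5 CPM in the higher group and no overlap between the groups. For returned genes these limits applied to resistant against naive cells instead. Of such genes the 6 with the largest change in each direction and the 4 that ranked highest in each class were taken, and list members may be named too. Members and lists were chosen with earlier results of these data known.

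The alternatives were RLE scaling (DESeq2 size factors), library size alone, DESeq2 1.42.0, limma-voom (limma 3.58.1), no filter on low counts, at least 1 CPM in 3 libraries, a fit of treated and naive libraries only, a replicate block, leaving out each library, a 4-fold limit for resistance genes and a 2-fold margin. In simulated counts for treated against naive cells (14370 genes), the share called was 80.3% at a true change of 1.5-fold, 84.6% at 2-fold and 100% at 4-fold, and 5.98% of calls were false. The simulation changed only 66, 65 and 65 genes at these sizes, in treated libraries alone, and gave all genes the same dispersion. In the data 63.4% of genes were called, so these shares describe the simulated setting and do not carry over. Promoters (250 bases before the start) are from RefSeq, GRCh38.p14. Chromosomes and GC content were taken by gene ID from GENCODE 29, and GC content was known for 99% of genes tested. The authors' own comparisons were not used.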

Additional observations from a re-analysis of the deposited data

How the results depend on the processing

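The counts of genes higher and lower in treated than naive cells stayed within 1.5 times of the reported ones under every alternative run, and DESeq2 and limma-voom moved no class by more. Scaling by library size alone moved the median of all genes by -0.0597 on the log2 scale and gave 4240 genes higher and 5042 lower. Leaving out each library in turn gave 4400 to 4820 genes higher and 4256 to 4738 lower, and at least 2-fold 1548 to 1641 higher and 1336 to 1432 lower. Of genes higher in resistant cells it gave 235 to 271 kept and further, 269 to 307 kept as in resistant cells, 183 to 234 partly reversed, 34 to 40 returned, 31 to 46 overshoot and 144 to 208 in no class; of genes lower in resistant cells it gave 85 to 105, 391 to 494, 290 to 375, 94 to 114, 123 to 160 and 249 to 334 in the same order. Genes moved with the inhibitor only ranged from 101 to 121 higher and 127 to 161 lower, and the difference in the share of mitochondrially encoded mRNAs from -0.330 to 0.799 percentage points. The number in no class was 247 (higher) and 450 (lower) without a filter on low counts, since more genes with few counts were tested, and 87 and 154 with at least 1 CPM in 3 libraries. With a 4-fold limit the classes in the same order held 102, 86, 59, 1, 1 and 24 genes (higher) and 21, 168, 147, 16, 31 and 63 genes (lower), as fewer genes pass that limit. With a 2-fold margin 83 (higher) and 226 (lower) genes had returned, 121 of the lower ones were in no class, and 233 (higher) and 259 (lower) genes moved with the inhibitor only.

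Same-numbered libraries correlated at -0.0758 to 0.0995 in their deviations from the group means, and 4 of 9 matched their own number best, so the numbers do not pair the libraries; the fit with the replicate number as a block gave 4730 genes higher and 4589 lower. Of 3886 values of 229 genes under the alternatives, 3830 kept direction and call, 41 lost and 15 gained a call and 0 turned direction. Of 1020 counts of list members called, 990 stayed within 1.5 times and 30 did not, most of them counts of few genes. Medians of chromosomes and stretches moved by over the spread between libraries in 31 of 198 values and turned direction in 0. The counts limit genes near the filter most: 72 of 704 list genes were too low to test, which leaves most defining markers of other cell types without a test.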
